A study of Mus musculus with 6 samples.

Results

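Inhibition of the let-7 family was examined by comparing the library of cells given a let-7 antagomiR, a chemically modified antisense RNA that binds and blocks a miRNA, with the library given control miRNA mimic and control antagomiR. Cells with at least 500 detected genes and at most 10% of their UMIs (unique molecular identifiers, one per captured RNA molecule) from mitochondrial genes were kept. These were 3128 cells of the let-7 antagomiR library and 4521 of the control library, 7649 of the 23258 kept cells in the 6 libraries of the series. The study cultured cells from papain-dissociated mouse retina as Müller glia in medium with 10% serum, L-glutamine, N2 supplement and EGF, and transfected them with lipid reagent, each RNA at 500 nM. Both libraries share this culture and transfection method, and both received RNA that the cells do not make. By the labels the control was given a mimic and an antagomiR, and the other library an antagomiR only. The part of this in the differences below was not tested. The labels used here give no strain, age, antagomiR sequence or time after transfection for the comparison, and do not say whether the cultures were prepared separately. Each treatment is 1 library and cells are not replicates, so no test between these libraries was possible, and no model over all 6 libraries was fitted. Intervals below are exact and cover counting error only. The kept cells had a median of 5907.5 UMIs and 2336 genes in the let-7 antagomiR library and 4481 UMIs and 1903 genes in the control, and the libraries shared 12 cell barcodes.

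The let-7 miRNAs are among the most conserved animal miRNAs. They accumulate as cells leave the proliferating state, and they lower the level and the translation of mRNAs that pair with the seed at their 5′ end, mostly in 3′ UTRs. In vertebrate retina, Müller glia are the glial cells that can act as progenitors in fish but rarely do so in mammals, and let-7 is known as one of the miRNAs abundant in mature glia. Its best known targets include the chromatin protein Hmga2, RAS proteins, cell cycle regulators and the RNA-binding proteins Lin28a and Lin28b, which in turn block let-7 maturation.

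The mature sequences (RefSeq, GRCm38.p6) are shown because the seed they share defines the sites counted below. Capitals mark the seed, bases 2 to 8 counted from the 5′ end.
let-7a-5p: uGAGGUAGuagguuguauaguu
let-7d-5p: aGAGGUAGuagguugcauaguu
let-7e-5p: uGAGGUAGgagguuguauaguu
let-7i-5p: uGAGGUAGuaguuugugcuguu
miR-98-5p: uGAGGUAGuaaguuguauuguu
All 9 mature members looked up, these 5 and let-7b, let-7c, let-7f and let-7g, had the seed GAGGUAG. Against let-7a, counted from the 5′ end, let-7d differed by U1A and U16C, let-7e by U9G, let-7i by G12U, A17G, U18C and A19U, and miR-98 by G11A and A19U. None of the differences lay in the seed, so the sites could not be assigned to single members. Whether the antagomiR was directed at 1 member or at several was not given in the sources used here.

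Sites were sought on the transcript strand of the longest annotated 3′ UTR of each gene (GENCODE vM21, GRCm38). An 8mer site was CTACCTCA, a 7mer-m8 site CTACCTC, a 7mer-A1 site TACCTCA and a 6mer site TACCTC. The shorter motifs lie inside the longer ones, and each gene was classed by its strongest site. Among 20996 genes with a 3′ UTR, 635 (3.02%) held an 8mer, 1245 (5.93%) a 7mer-m8, 1230 (5.86%) a 7mer-A1 and 1781 (8.48%) a 6mer site as the strongest. Sites in genes that the results below turn on are shown as 30 bases of the transcript strand with the site in capitals at the 3′ end.
Thrsp, chr7:97413173-97413202, minus strand: gtataaagcagggatgctgtatCTACCTCA
Tgfbr1, chr4:47410821-47410850, plus strand: ggtgtttaggaggctggttgttCTACCTCA
Hmga2, chr10:120364224-120364253, minus strand: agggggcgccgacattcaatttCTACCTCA
Gaa, chr11:119273072-119273101, plus strand: cttctgcaatcagcaaacctgtCTACCTCA
Igfbp5, chr1:72859680-72859709, minus strand: cagttagccttccccaggtcagcCTACCTC
Marcksl1, chr4:129515462-129515491, plus strand: tagtgatgtgagatgccctgtccCTACCTC
Tarbp2, chr15:102523421-102523450, plus strand: ggtaccctccagaggtgccatctCTACCTC
The site of Igfbp5 lay 2691 bases after the stop codon, and the other sites shown lay 58 to 355 bases after it. Tgfbr1 and Hmga2 also hold further sites, whereas the windows of Thrsp and Igfbp5 are the only 7-mer or 8-mer sites in their UTRs.

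The cultures labelled as Müller glia held several cell types, and their shares differed between the libraries. Müller glia-like cells made up 51.6% (49.8 to 53.3%, 1613 cells) of the let-7 antagomiR library and 29.8% (28.5 to 31.2%, 1347 cells) of the control. Fibroblast- or mesenchyme-like cells made up 28.5% (26.9 to 30.1%) against 48.0% (46.6 to 49.5%). The intervals of both classes lay far apart, but with 1 culture a treatment the spread between cultures is not known. Pericyte- or smooth muscle-like cells made up 6.62% against 8.58%, astrocyte-like cells 5.72% against 6.13%, and microglia- or macrophage-like cells 3.29% against 2.72%. Within the Müller glia-like class the makeup was close: the cluster led by Gpr37 held 56.0% of the class against 56.5%, the cluster led by Grem1 34.9% against 32.9%, and the cluster led by Lcn2, a secreted protein made by reactive glia, 8.68% against 10.1%.

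**Figure D1:**
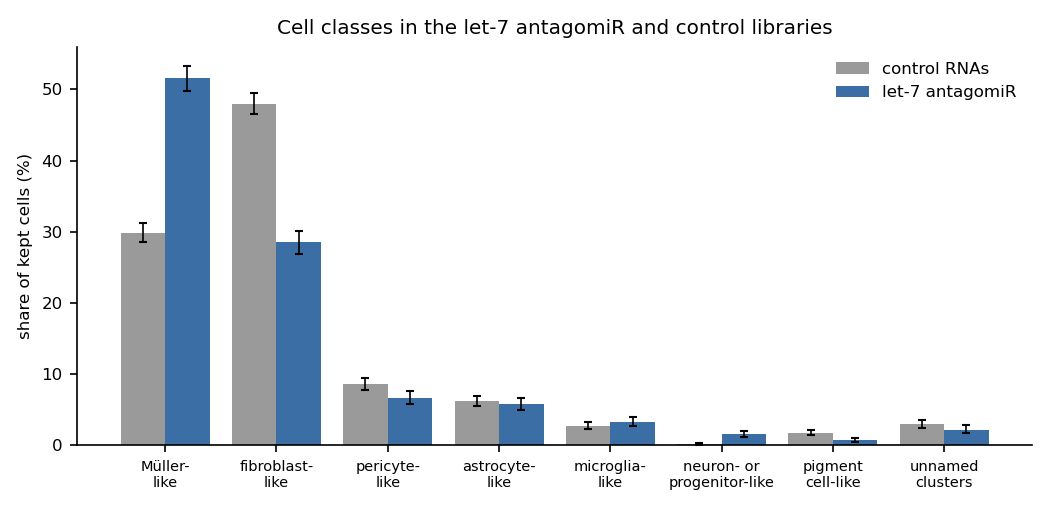
Share of kept cells (percent) in each cell class for the control and the let-7 antagomiR library, with exact binomial 95% intervals that cover counting error only. Müller glia-like cells were 29.8% of the control and 51.6% of the let-7 antagomiR library, and fibroblast-like cells 48.0% and 28.5%.

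A small class with neuronal and neurogenic markers was larger in the let-7 antagomiR library. It held 47 cells, 1.5% (1.11 to 1.99%), against 5 cells, 0.111% (0.0359 to 0.258%), in the control. The 47 cells had a median of 4056 UMIs, against 5600 in the Müller glia-like and 6142 in the fibroblast-like cells of the same library. Elavl3 (a neuronal RNA-binding protein), Neurod4 and Neurod1 had a UMI in 19, 18 and 15 of the 47 cells, against 1, 3 and 1 of the 1613 Müller glia-like cells. Tubb3 (neuronal tubulin) had one in 59.6% of the 47, 13.3% of Müller glia-like and 2.36% of fibroblast-like cells, and Hes6 (a transcription factor of differentiating progenitors) in 57.4%, 20.3% and 18.5%. Other genes of the class were shared with Müller glia-like cells: Prox1, a homeobox factor, had a UMI in 72.3% of the 47, 40.4% of Müller glia-like and 0.561% of fibroblast-like cells, Rlbp1 in 42.6%, 28.6% and 0.112%, and Glul in 38.3%, 38.6% and 11.8%. Not every listed marker of the class was more frequent in it. Stmn2 had a UMI in 42.6% of the 47, 54.6% of Müller glia-like and 33.4% of fibroblast-like cells. Dll1 had one in 12.8%, 13.5% and 0.112%, Sox11 in 23.4%, 3.60% and 22.3%, and Dll3 and Atoh7 in none of the 47. The rest of the list, like Sox11, was more frequent in the 47 than in Müller glia-like cells. The number of cells rests on the clustering: at a coarser resolution the class held 16 cells against 1, and clustering of these libraries alone gave no such class. Because these genes define the class, their levels in it are a description of the cells and not a comparison of treatments.

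Within Müller glia-like cells, 9387321 UMIs were summed after let-7 inhibition and 5485771 in the control, with a median of 5600 and 3913 UMIs per cell. The part of this depth gap in the differences below was not tested. Levels are given as CPM, the gene's UMIs scaled to the same total in each class and library, and differences as log2 of the let-7 antagomiR level over the control level after adding 5 CPM to each, which understates the differences of weakly expressed genes. Of 6346 genes with at least 20 CPM in 1 of the libraries, 67 (1.06%) were at least 1.5-fold higher in the let-7 antagomiR library and 36 (0.567%) at least 1.5-fold lower. Of the 67, 27 reached 20 CPM in the let-7 antagomiR library alone, and of the 36, 7 did so in the control alone. Those genes could be called in 1 direction only. At 2-fold, 11 (0.173%) were higher and 2 (0.0315%) lower. The median difference over all 6346 genes was 0.011 and the median absolute difference 0.13, so most genes lay close to the control. Over all kept cells, where the cell types are mixed, 210 genes (3.26%) passed 1.5-fold on the higher side and 127 (1.97%) on the lower.

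The 10 genes with the largest difference in the higher direction covered secreted factors, transcription factors and neuronal proteins. Of the 10, 7 reached 20 CPM in the let-7 antagomiR library alone, so they could enter the ranking only as higher. Igfbp5, a secreted protein that binds insulin-like growth factors and whose UTR window is printed above, was at 154 CPM (146 to 162) against 51.4 CPM (45.6 to 57.8), a log2 difference of 1.5. Thrsp, a nuclear regulator of fatty acid synthesis with an 8mer site, was at 220.2 CPM (211 to 229.9) against 89.0 CPM (81.2 to 97.2), a difference of 1.26. Npvf, which encodes a neuropeptide precursor and is among the Müller glia markers used here, was the most abundant of the 10, at 694 CPM (678 to 711) against 311 CPM (296 to 326), a difference of 1.15. For these 3 genes the intervals of the libraries did not come near each other. Klf4, a transcription factor induced by growth factors and stress, was at 52.5 against 17.3 CPM (1.37). Tubb3, the neuronal tubulin, was at 51.0 against 17.5 CPM (1.32). The other members were AI593442 (64.8 against 18.8 CPM, 1.55), the potassium channel subunit gene Kcne1l (65.0 against 19.1 CPM, 1.54), Scand1 (53.3 against 17.0 CPM, 1.41), R3hdml (52.6 against 19.1 CPM, 1.26) and Plppr1 (24.7 against 8.02 CPM, 1.19). Of the 10, Thrsp held an 8mer and Igfbp5 a 7mer-m8 site.

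Among the 10 genes with the largest difference in the lower direction, Gpnmb, a lysosomal and membrane glycoprotein of phagocytes and reactive cells, was at 65.3 CPM (60.2 to 70.7) against 205 CPM (193 to 217), a log2 difference of -1.58. Ccnd1, the cyclin that drives entry into the cell cycle, was at 673 CPM (657 to 690.3) against 1463 CPM (1431 to 1495), a difference of -1.11. These were the 2 genes past 2-fold in the lower direction. A2m, a secreted protease inhibitor, was at 515 against 1006 CPM (-0.96), and Alcam, a cell adhesion molecule, at 243 against 475 CPM (-0.95). The remaining 6 lay between -0.94 and -0.85: the matrix-associated Aebp1 (35.7 against 72.9 CPM), the galectin Lgals3 (120.3 against 228 CPM), Efhd1 (29.7 against 58.0 CPM), the interferon-induced Ifit1 (10.0 against 22.1 CPM), the heme oxygenase Hmox1 (90.0 against 166 CPM) and the septin Sept4 (42.1 against 79.7 CPM). Ccnd1 carries a 7mer-A1 let-7 site and is a known let-7 target, and its level was lower with the let-7 antagomiR.

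**Figure D2:**
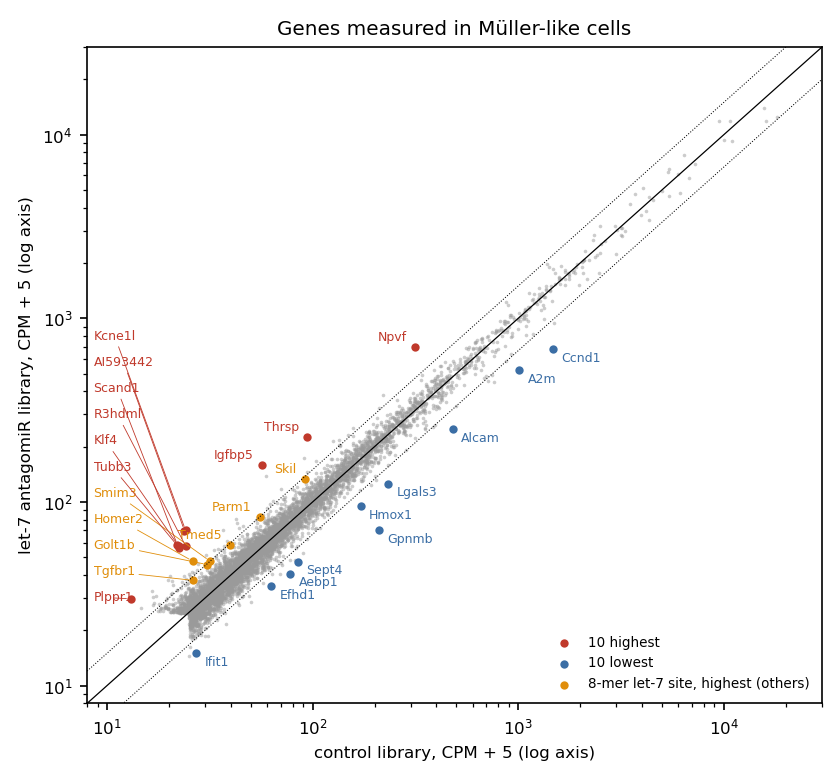
Level of each of the 6346 genes measured in Müller glia-like cells in the control (horizontal) and let-7 antagomiR library (vertical), in CPM plus 5 on log axes, with the 10 highest, 10 lowest and leading 8mer genes labelled and dotted lines at 1.5-fold. Thrsp, Igfbp5 and Npvf lie above the diagonal, Gpnmb and Ccnd1 below it, and most genes close to it.

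Transcripts with let-7 sites as a whole differed little from those without. The 1078 measured genes with a 7-mer or 8-mer site had a median log2 difference of 0.031 and 56.7% lay above 0, against a median of 0.0067 and 51.4% in 5171 genes without one. Of the site genes, 14 (1.30%) were at least 1.5-fold higher and 4 (0.371%) at least 1.5-fold lower, against 0.967% and 0.619% of genes without a site. By strongest site, the median was 0.036 for 205 genes with an 8mer, 0.056 for 408 with a 7mer-m8, 0.0058 for 465 with a 7mer-A1, -0.01 for 616 with a 6mer and 0.0079 for 4555 with none. Medians for 1, 2 and 3 or more sites were 0.031, 0.025 and 0.043, so the difference did not grow steadily with the number of sites. All of these medians are small beside the median absolute difference of 0.13 between the libraries.

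The difference was larger among genes with short 3′ UTRs, a division made after the values of all site genes had been seen. When the measured genes were split into 3 classes of equal size by UTR length, the 76 site genes with UTRs of at most 767 bases had a median difference of 0.19 and 84.2% lay above 0, against a median of 0.041 in 2007 genes without a site of the same length class. In the middle class, up to 2070 bases, 290 site genes had a median of 0.058 against 0.00098, and in the longest class 712 site genes had 0.0047 against -0.036. The gap between site genes and others was therefore 0.15, 0.057 and 0.04 from the shortest to the longest class. In the shortest class the median was 0.19 for 10 genes with an 8mer, 0.21 for 31 with a 7mer-m8, 0.16 for 35 with a 7mer-A1 and 0.049 for 61 with a 6mer. The ratio's counting interval lay above 0 for 44 of the 76 genes (57.9%) and below 0 for 6 (7.89%), against 22.8% and 13.5% of genes without a site. Of the 76 genes, 10 reached 20 CPM in the let-7 antagomiR library alone and 3 in the control alone. With the mean of the libraries required to reach 20 CPM, an alternative added after seeing the data, 67 genes were left, 85.1% of them above 0 against 59.0% without a site, and the gap was again 0.15. With no filter on level it was 0.044. Sites of 7 other miRNA families, counted the same way, gave gaps between -0.059 and 0.015 in the shortest class. UTR length itself moved with the difference: over all genes the median was 0.048, 0.011 and -0.021 from the shortest to the longest class, and its part in the gaps between classes was not tested.

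**Figure D3:**
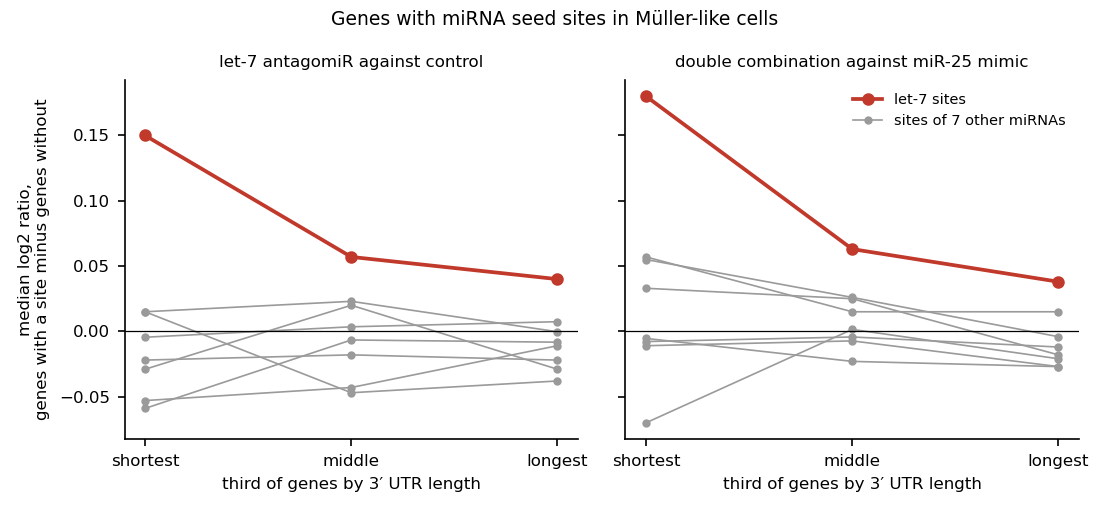
Median log2 difference of genes with a site minus that of genes without one, in Müller glia-like cells, for let-7 (red) and 7 other miRNA families (grey) by 3′ UTR length class; the left panel is the comparison with the control, the right panel the let-7 antagomiR with miR-25 mimic against miR-25 mimic alone. The let-7 gap was 0.15 in the shortest class, 0.057 in the middle class and 0.04 in the longest, while the other families lay between -0.059 and 0.015 in the shortest class.

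The short-UTR genes with the largest differences are named here after their values were seen. Thrsp led them, followed by Marcksl1, a membrane protein that binds actin, at 319.8 CPM (308 to 331) against 205 CPM (193 to 217), a log2 difference of 0.63. Bzw2, a regulator of translation initiation, was at 26.4 against 15.5 CPM (0.62). Fam96a, which takes part in iron-sulfur protein assembly, was at 98.2 CPM (92.0 to 105) against 67.3 CPM (60.6 to 74.5), a difference of 0.51. Stard3nl, a protein of contacts between endosomes and the endoplasmic reticulum, was at 138 against 98.4 CPM (0.46). Tarbp2, the RNA-binding partner of Dicer, was at 21.3 against 14.4 CPM (0.44), and the ubiquitin-conjugating enzyme gene Cdc34, with 2 sites, at 38.8 against 28.6 CPM (0.38). The counting intervals of Marcksl1 and of Fam96a did not overlap between the libraries. Against this trend, Hkdc1, a hexokinase-related gene, was at 9.48 against 20.1 CPM (-0.79), and Gaa, the lysosomal enzyme that degrades glycogen, at 51.0 against 77.8 CPM (-0.56) although its UTR holds an 8mer.

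Of the 8 genes with an 8mer and the largest differences, Thrsp was first and Homer2, a scaffold protein of postsynaptic sites, was second, at 42.6 against 21.1 CPM (0.86). Parm1 (77.4 against 50.3 CPM, 0.58) and Skil, an inhibitor of SMAD transcription factors (128 against 86.8 CPM, 0.53), held 3 sites each. Tgfbr1, the type I receptor of TGF-beta, was at 32.4 against 21.3 CPM (0.51). The others were Smim3 (0.59), Golt1b (0.57) and Tmed5 (0.56). At the other end of the 8mer genes, besides Gaa, St6gal1, a sialyltransferase, was at 14.5 against 23.5 CPM (-0.55), AW549877 at 28.9 against 40.3 CPM (-0.42) and the collagen gene Col5a2 at 44.0 against 59.8 CPM (-0.40).

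Textbook let-7 targets did not move together in Müller glia-like cells. Of 35 listed, 15 were measured, with a median log2 difference of -0.013. Dicer1, the RNase that releases mature miRNAs, was at least 1.5-fold higher, at 40.8 CPM (36.8 to 45.1) against 22.8 CPM (19.0 to 27.1), a difference of 0.72, with a 6mer as its strongest UTR site. Ccnd1 and Ccnd2, both D-type cyclins, were at least 1.5-fold lower, Ccnd2 at 942 CPM (923 to 962) against 1491 CPM (1459 to 1524), a difference of -0.66. Between these lay Thbs1, a secreted matrix protein (112 against 74.7 CPM, 0.55), the activin receptor gene Acvr2a (21.7 against 14.4 CPM, 0.46) and Nras (151 against 117 CPM, 0.36) on the higher side. Its relative Hras was on the lower side, at 26.0 against 34.3 CPM (-0.34). Igf1r, the IGF receptor, was at 239.7 against 273 CPM (-0.19) and Cdk6 at 118 against 123 CPM (-0.063).

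Hmga2, whose UTR holds 7 let-7 sites, was at 28.0 CPM (24.7 to 31.6) against 29.3 CPM (25.0 to 34.2), a difference of -0.057 with overlapping intervals. Lin28a and Lin28b had no UMI in either library, where 3 UMIs would be 0.320 CPM with the antagomiR and 0.547 CPM in the control. The RNA-binding protein genes Igf2bp1 (9.27 against 8.20 CPM), Igf2bp2 (18.7 against 14.2 CPM) and Igf2bp3 (13.7 against 12.4 CPM) were below the level needed for a call, as were Arid3a (11.7 against 9.30 CPM), Hic2 (5.11 against 4.19 CPM) and Mycn (3.41 against 1.28 CPM). Each of these 6 had its higher value in the let-7 antagomiR library. Of the 9 let-7 and miR-98 host transcripts sought, only Huwe1 matched a gene in the files, so let-7 itself was not measured here.

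Cell cycle, gliosis and progenitor genes were described by lists. Among 11 measured genes of G1 cyclins and their regulators the median difference was 0.062; Ccnd1 and Ccnd2 were lower, whereas Ccnd3 was at 200.4 against 168 CPM (0.25) and their partner kinase gene Cdk4 at 146 against 121 CPM (0.26). None of 20 G2/M genes reached 20 CPM in this class, and their summed level was 15.3 against 21.9 CPM. A cluster led by the cell cycle gene Cenpf, with 14 cells against 18, lies outside it among the unnamed clusters. The summed level was 91.4 against 77.2 CPM over all kept cells and 1179 against 580.1 CPM in microglia-like cells. In fibroblast-, pericyte- and astrocyte-like cells it was lower, at 14.8 against 19.3, 7.56 against 13.7 and 10.3 against 29.6 CPM. No gene of the list reached 20 CPM in these classes, so their sums rest on few UMIs. Of 17 reactive gliosis genes, 3 were at least 1.5-fold lower and none higher, with a median of -0.22, against 0.567% lower and 1.06% higher over all measured genes. These were Nes, an intermediate filament gene of progenitors and reactive glia (22.4 against 38.8 CPM, -0.68), Lcn2 (451 against 705 CPM, -0.64) and the hyaluronan receptor gene Cd44 (126 against 198 CPM, -0.63), the last named after its value was seen. Gfap, the filament protein of activated glia, went the other way, at 74.7 against 55.1 CPM (0.41). Among 12 progenitor and proneural genes the median was 0.15 and Hes6 was past 1.5-fold, at 74.9 against 47.8 CPM (0.60). Of 5 measured markers of the neuron- or progenitor-like class, Tubb3 and Hes6 were past 1.5-fold higher and Stmn2 lower (446 against 761 CPM, -0.76). Of 6 Notch pathway genes 5 lay above 0, against 52.4% of all measured genes, and none was past 1.5-fold, with Hes1 at 43.0 against 31.9 CPM (0.38).

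Immediate early genes, which growth factors and stress induce within minutes, had the highest median of the pathway lists, leaving cell type markers aside, 0.27 over 13 genes with 10 above 0. Klf4 and Fosb (199.7 against 129 CPM, 0.61) were past 1.5-fold. Interferon-induced and antigen presentation genes had the lowest of the same lists, -0.27 over 10 genes with none above 0. Ifit1 was past 1.5-fold, and B2m, the invariant chain of MHC class I, was at 1629 against 2147 CPM (-0.40). Among 12 collagen genes, the basement membrane collagens Col4a2 (169 against 85.5 CPM, 0.94) and Col4a3 (96.8 against 58.9 CPM, 0.67) were higher and Col8a1 (256 against 390.1 CPM, -0.60) lower. Of 16 insulin and IGF pathway genes, Igfbp5 was past 1.5-fold, and the related binding protein genes Igfbp2 (987 against 1327 CPM, -0.43) and Igfbp3 (21.2 against 28.8 CPM, -0.37) lay on the other side. Medians were small for TGF-beta genes (0.085 over 10), RAS and MAPK genes (-0.067 over 15), p53 targets (-0.041 over 14) and miRNA processing genes (0.069 over 12, with Dicer1 past 1.5-fold).

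**Figure D4:**
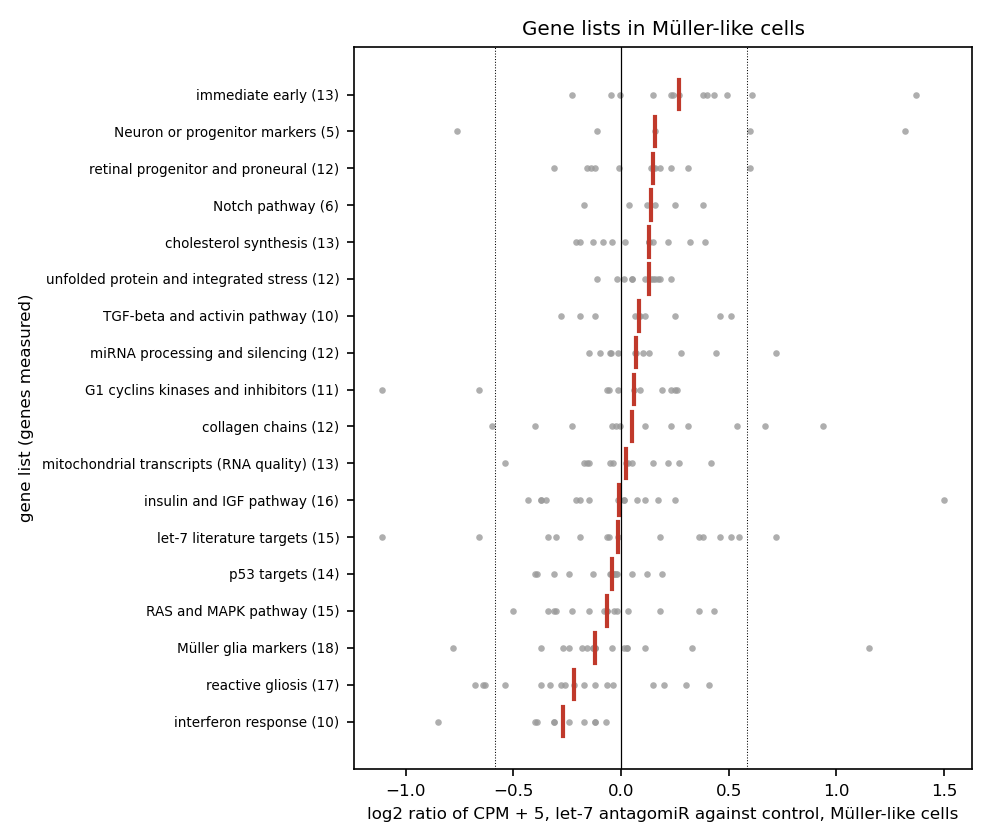
Log2 difference (let-7 antagomiR over control, CPM plus 5) of each measured gene of the lists in Müller glia-like cells, 1 point a gene with the list median as a bar and dotted lines at 1.5-fold. Immediate early genes had a median of 0.27, interferon and antigen presentation genes -0.27, reactive gliosis genes -0.22 and textbook let-7 targets -0.013.

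Markers of Müller glia summed to 17547 CPM with the let-7 antagomiR against 16932 CPM in the control. Apoe, the most abundant of them, was at 5095 against 4054 CPM (0.33). The median difference of the measured markers was -0.12, with 6 above 0 and 12 below, where 52.4% of all measured genes lay above 0. Of 18 measured, Npvf was at least 1.5-fold higher and Hopx (47.5 against 85.1 CPM, -0.78) lower, while Glul (101 against 99.5 CPM), Rlbp1 (82.2 against 90.8 CPM) and Sox9 (148 against 160.2 CPM) were close. Summed markers of other cells in the same class were 95.3 against 116 CPM for fibroblasts, 4734 against 4257 CPM for pericytes, 188 against 170.3 CPM for astrocytes, 40.2 against 43.4 CPM for microglia and 465 against 559 CPM for endothelium. The part of these levels in the differences above was not tested.

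The share of genes past 1.5-fold was greater in the other classes. It was 1.53% higher and 1.05% lower in fibroblast-like cells, which rest on 5823238 and 10990870 UMIs, 2.95% and 4.61% in pericyte-like cells, 3.44% and 3.86% in astrocyte-like cells, and 8.96% and 10.1% in microglia-like cells, whose sums rest on 766718 and 772257 UMIs. In fibroblast-like cells the largest differences were in Fxyd6, a regulator of the sodium pump (82.6 against 4.91 CPM, 3.14), and in the enkephalin precursor gene Penk (78.1 against 21.2 CPM, 1.67). On the lower side were the tight junction gene Cldn11 (7.38 against 34.0 CPM, -1.66) and the acute phase gene Saa3 (5.84 against 25.3 CPM, -1.48). All 13 measured cholesterol synthesis genes lay above 0 in fibroblast-like cells, with a median of 0.29, where 59.9% of all genes did, against 8 of 13 in Müller glia-like cells with a median of 0.13.

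Of the immediate early genes, 6 of 12 were at least 1.5-fold higher in astrocyte-like cells, with a median of 0.56, and 7 of 12 in microglia-like cells, with a median of 0.67 and 1 lower. In fibroblast-like cells 4 of 13 were, with a median of 0.18, and in pericyte-like cells none of 13 was, with a median of 0.14. Over all measured genes the share at least 1.5-fold higher was 3.44% in astrocyte-like, 8.96% in microglia-like, 1.53% in fibroblast-like and 2.95% in pericyte-like cells. In microglia-like cells 10.1% were at least 1.5-fold lower. Microglia-like cells had more Cd69, an early activation antigen (80.9 against 11.7 CPM, 2.37), and more of the chemokine gene Cxcl2 (271 against 50.5 CPM, 2.32). Their lowest genes were mesenchymal, such as Col3a1 (2.61 against 104 CPM, -3.84) and Lox, which crosslinks collagen (6.52 against 146 CPM, -3.72). In the same cells the summed fibroblast markers were at 19.6 against 263 CPM and the pericyte markers at 214 against 1489 CPM, and their part in these differences was not tested. In pericyte-like cells Gfap (4.86 against 58.9 CPM, -2.70), the imprinted growth genes H19 (20.5 against 139 CPM, -2.50) and Igf2 (1.62 against 30.2 CPM, -2.41) and Pdpn (15.7 against 108 CPM, -2.46) were the lowest, beside summed astrocyte markers of 17.3 against 82.5 CPM whose part was not tested. In astrocyte-like cells Mgp, a matrix inhibitor of calcification, was at 249 against 957 CPM (-1.92) and the elastin gene Eln at 71.3 against 21.6 CPM (1.52), beside summed pericyte markers of 3388 against 4557 CPM whose part was not tested.

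Few genes were past 1.5-fold in the same direction in every class that measured them. Of 5930 genes measured in at least 3 of the classes compared, 7 were higher and 2 lower in all of these. Genes past 1.5-fold in only some of the classes that measured them were not counted. Scand1, which encodes a small protein with a SCAN domain, was higher in 5 classes, with differences of 1.41 in Müller glia-like, 1.48 in fibroblast-like, 1.5 in pericyte-like, 1.53 in astrocyte-like and 0.91 in microglia-like cells. Unc119, a lipid-binding trafficking protein first known from photoreceptors (36.0 against 21.5 CPM in Müller glia-like cells), Med30, a Mediator subunit (32.9 against 19.3 CPM), and 1 unnamed gene model were also higher in 5 classes, Fam122a in 4, and Cox11 and Eln in 3. Lcn2 and H6pd were lower in 3. Scand1 in Müller glia-like cells was at 53.3 CPM in the let-7 antagomiR library and between 4.10 and 17.0 CPM in the other 5 libraries, with the control the highest of those 5. Med30, Unc119, Cox11 and Fam122a were likewise highest in the let-7 antagomiR library among the 6.

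Several of the leading genes of Müller glia-like cells also differed in the other classes, and some are far more abundant there. Igfbp5 was at 9444 against 6495 CPM in astrocyte-like cells (0.54) and at 2945 against 1577 CPM in fibroblast-like cells (0.90), levels far above those in Müller glia-like cells, and it was on the lower side in pericyte-like cells, at 204 against 393 CPM (-0.93). Whether RNA released from those cells contributes to the Müller glia-like level was not tested. Thrsp was also higher in astrocyte-like cells, at 117 against 57.0 CPM (0.97), as was Klf4, at 50.7 against 19.5 CPM (1.19). Ccnd1 was on the lower side in every class compared, at 49.7 against 153 CPM in pericyte-like cells (-1.53), 128 against 200.4 CPM in astrocyte-like cells (-0.63), 162 against 216 CPM in microglia-like cells (-0.41) and 122 against 150.4 CPM in fibroblast-like cells (-0.30). Alcam was lower in pericyte-like cells (-1.27) and astrocyte-like cells (-1.19) but not in fibroblast-like cells, where it was at 77.6 against 58.9 CPM (0.37).

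**Figure D5:**
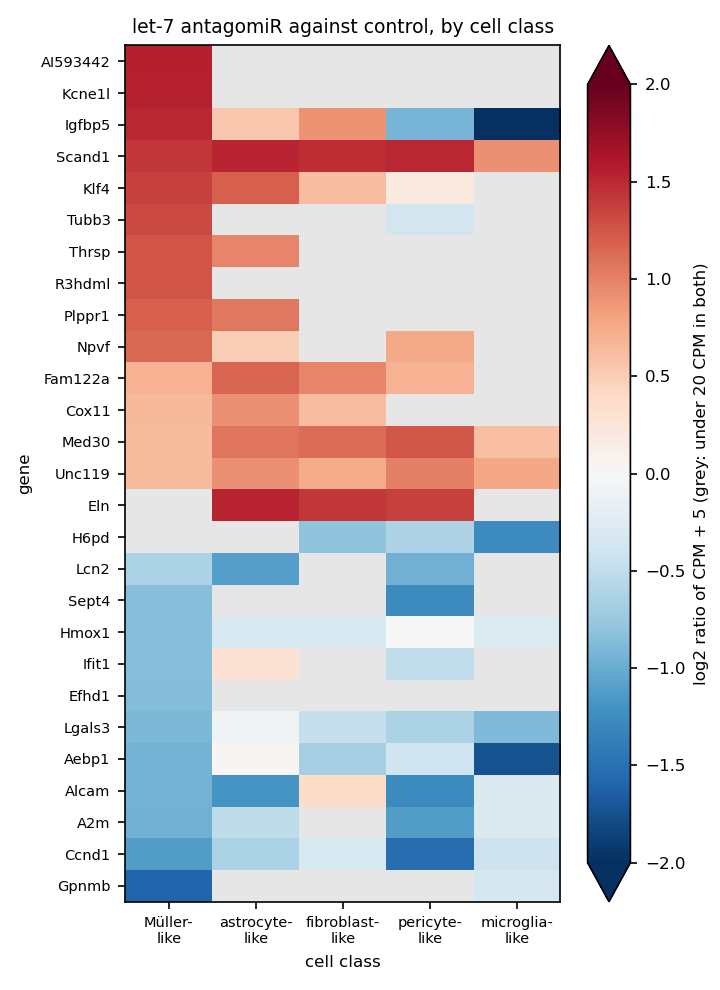
Log2 difference (let-7 antagomiR over control, CPM plus 5) of the leading genes in Müller glia-like cells, for 5 cell classes. Red is higher, blue lower and grey under 20 CPM in both. Genes alike in every class that measured them, with at least 3 such classes, are also shown. Scand1 was higher in all 5, from 0.91 in microglia-like to 1.53 in astrocyte-like cells, and Ccnd1 was on the lower side in all 5.

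The short-UTR site genes were compared across classes in the same way. In astrocyte-like cells the 77 measured had a median of 0.19 against 0.051 in genes without a site, a gap of 0.14, with 74.0% above 0. The gap was 0.015 in fibroblast-like cells, -0.07 in pericyte-like cells and -0.049 in microglia-like cells. The differences between classes were not tested.

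The level of the leading genes in Müller glia-like cells of the other libraries shows which library stood apart. Thrsp was lowest in the control, at 89.0 CPM, and between 220.2 and 633 CPM in the other 5 libraries, so it was equally high in the library given the miR-25 mimic alone (228 CPM). Ccnd1 was highest in the control, at 1463 CPM, against 356 to 1083 CPM in the other 5. For these 2 genes the control stood apart from every other library, with or without the let-7 antagomiR. Igfbp5 was highest in the let-7 antagomiR library, at 154 CPM against 39.2 to 83.1 CPM, and so were Klf4, at 52.5 CPM against 17.3 to 31.9 CPM, Tubb3, at 51.0 CPM against 13.8 to 27.7 CPM, and Npvf, at 694 CPM against 159 to 553 CPM. Marcksl1, at 319.8 CPM, was also highest there, with 186 to 232 CPM in the others, whereas Fam96a was higher in the library labelled as miR-124 mimic (118 CPM) than with the let-7 antagomiR alone (98.2 CPM).

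A second comparison that shares neither library was set beside the first: cells given the let-7 antagomiR with a miR-25 mimic against cells given the miR-25 mimic alone. By the labels the latter library was given a mimic and no control antagomiR, whereas the control of the first comparison was given a mimic and an antagomiR. The part of this in the differences was not tested. The matrix of the combined treatment used here is incomplete. Of 6423 genes measured in its Müller glia-like cells, 154 (2.40%) were at least 1.5-fold higher and 236 (3.67%) lower. Of the 57 genes past 1.5-fold higher in the first comparison and measured in both, 41 (71.9%) were above 0 in the second, against 45.1% of all genes, and 17 were past 1.5-fold higher again, while 5 were past 1.5-fold lower. Of the 34 lower genes measured in both, 20 (58.8%) were below 0, against 54.9% of all genes, with 7 past 1.5-fold lower again and 3 past 1.5-fold higher. Over all 6152 genes measured in both, 127 were past 1.5-fold higher and 217 lower in the second comparison. In the first comparison 27 of the 67 higher and 7 of the 36 lower genes reached 20 CPM in 1 library alone. Their part in these shares was not tested.

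Single genes differed in how far they were shared. AI593442 (134 against 12.3 CPM, 3.01), Npvf (1.39), R3hdml (1.12) and Plppr1 (0.97) were past 1.5-fold higher in the second comparison too. Thrsp was not, at 234 against 228 CPM (0.033), and Klf4 (-0.72) and Tubb3 (-0.084) were below 0. Ccnd1 was lower again, at 697 against 1083 CPM (-0.63), as were A2m (-1.25) and Sept4 (-1.33), whereas Gpnmb was higher, at 278 against 154 CPM (0.83), and Ccnd2 was close to equal (0.045). Hmga2 was at 38.3 against 14.1 CPM (1.18), unlike in the first comparison, where it was at 28.0 against 29.3 CPM. Its level in the combination was thus above that in the control, and its level in the miR-25 mimic library was below it. The part of the miR-25 mimic in this difference was not tested.

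Genes with short UTRs and let-7 sites were higher in the second comparison as well. The 80 measured there had a median of 0.18 against 0.0045 in genes without a site, a gap of 0.18, with 71.2% above 0, and the other 7 families gave gaps between -0.07 and 0.057. In the middle and longest classes the let-7 gap was 0.063 and 0.038. Of 70 such genes measured in both comparisons, 45 (64.3%) were above 0 in both, against 686 of 1962 genes without a site (35.0%). Among them, Fam96a was at 0.71 in the second comparison, Cdc34 at 0.71 and Tarbp2 at 0.77. Of the 8 leading 8mer genes, 7 were above 0 there, the exception being Homer2 (-0.088). In both comparisons a gene could be measured by reaching 20 CPM in 1 library alone. The short-UTR gap with no filter on level was 0.044 in the first comparison and was not computed for the second. The part of the filter in the gap and shares of the second comparison was not tested.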

How the data were processed

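Single-cell RNA was captured with 10x chemistry, 1 library a treatment, and the authors deposited gene by cell matrices of raw UMI counts. Per the submitters' processing notes, Cell Ranger 2 and Seurat 2 were used with the mm10 genome; the sources used here do not give other settings. The deposited counts were summed per library and cell class. Classes came from clustering all 6 libraries together (scanpy 1.11.5, 2000 variable genes, 30 components, 15 neighbours, Leiden resolution 0.6) and were named from marker lists. By a rule set after seeing the data, 2 clusters were left unnamed. In 1 of them deep cells held markers of more than 1 class, and the other was led by the cell cycle gene Cenpf. Doublets were not removed: Scrublet called 0.111% of the control cells, too few to have worked. Intervals are exact at 95% (Poisson, Clopper-Pearson, or conditional binomial for ratios). Genes needed 20 CPM in 1 library, 5 CPM was added before log2, and a call is 1.5-fold or more. Named genes are the 10 highest and 10 lowest measured genes in Müller glia-like cells, the 8 highest and 4 lowest genes with an 8mer site, the 4 highest and 4 lowest of each other class, the 2 highest and 2 lowest of each list, the 8 with the largest smallest difference over classes, and a set named whatever its values. The comparison, lists and rules were chosen with earlier results of these data known. The matrix of the let-7 antagomiR and miR-25 mimic combination held 3014 of 5141 barcodes. Calculations were tested on simulated data. Alternatives covered the pseudocount, filter, fold, scaling, clustering, doublets, cell filter, each Müller cluster alone, and all kept cells.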

Additional observations from a re-analysis of the deposited data

How the results depend on the processing

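Over 21 settings, 77 recomputed summary values stayed close to the reported ones and 13 moved. Of all these, 3 fell on the other side of 0, all of them the median of the textbook let-7 targets, reported as -0.013: it was 0.05 with no filter, 0.0089 with a higher minimum of genes per cell and 0.00014 with the same mix of Müller clusters. The count of 67 genes higher in Müller glia-like cells became 34 with a 50 CPM filter, 104 with no filter, 210 over all kept cells and 11 at 2-fold. The 36 lower genes became 61 with a pseudocount of 1, 72 with no filter, 127 over all kept cells and 2 at 2-fold. The gap between genes with and without a let-7 site, 0.024, was 0.083 when averaged within UTR length classes. The short-UTR gap of 0.15 was 0.044 with no filter and 0.064 over all kept cells. The 9 genes alike in every class that measured them became 16 with a pseudocount of 1 and 1 at 2-fold. The cause of these shifts was not tested. For single named genes, 322 of 341 values stayed close, 19 moved and none changed sign. Most of the moves were over all kept cells, where 16 values moved and 15 stayed close. There Igfbp5 was at 0.27 rather than 1.5 and Ccnd1 at -0.38 rather than -1.11. Throughout, close meant within a factor of 1.5 for counts of genes and within counting error for other values. The difference in Müller glia-like share was 21.8 points and between 21.4 and 23.0 under the other clusterings and filters. Other scalings shifted the median of all genes by -0.011 and 0.0083. The short-UTR alternatives and the filter on the mean of the libraries were added after seeing the data. No paired analysis was possible because each treatment is 1 library and the labels number no replicates. With 1 library a treatment, a difference between cultures cannot be told apart from one between treatments, and genes under 20 CPM were too thinly counted for a call.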
